A study of Mus musculus with 12 samples.

Results

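MHC class II antigen presentation was examined in the livers of germ-free and conventionalized mice through 8 genes, H2-Aa, H2-Ab1, H2-Eb1, H2-DMa, H2-DMb1, Cd74, Ciita and Ctss. They were taken from the deposited gene table by exact match of the symbol, and each of the 8 names found 1 of the 41128 genes. All 8 had a mean of at least 10 normalized reads and so belonged to the 11782 genes that were tested.

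MHC class II molecules carry peptides from engulfed material to the surface of antigen-presenting cells, where CD4 T cells read them. In the endoplasmic reticulum the alpha and beta chains assemble with the invariant chain, the product of Cd74, which fills the groove until cathepsin S, the product of Ctss, degrades it in endosomes. H2-DM, the dimer of the H2-DMa and H2-DMb1 products, then exchanges the remaining fragment for peptide. Transcription of the class II chains, the H2-DM chains and Cd74 depends on CIITA, a coactivator that is recruited by factors bound to the X and Y boxes of the promoters. In liver, Kupffer cells, dendritic cells, B cells and sinusoidal endothelium are the known class II-bearing cells, and hepatocytes carry little.

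The livers came from 12 C57BL/6 mice killed at 6 weeks of age, 3 libraries in each of 4 groups. Every mouse was kept in a sterile isolator up to weaning at day 21. Germ-free (GF) males and females stayed there, and conventionalized (CV) males and females spent the next 3 weeks in ordinary cages on soiled bedding from the same facility, so CV and GF mice differ in housing as well as in microbes. The mice are described as littermates, which of them were siblings or shared a cage or isolator is not given, and the p-values measure the spread between these libraries.

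Stranded mRNA libraries from snap-frozen whole liver held 5993619 to 10975691 reads in GF mice and 8890529 to 15290835 in CV mice. Values are reads divided by the library's DESeq2 size factor, called normalized reads here, and log2 differences are on the scale of log2(normalized reads + 1). All 10 hepatocyte markers were detected, with summed levels of 129163 to 717909 normalized reads. A set of 7 abundant loci, made up of Lars2, the mitochondrial ribosomal RNAs mt-Rnr1 and mt-Rnr2, Gm23935, Gm42418, Gm15564 and Mir6236, held 41.8% to 69.4% of the reads of each GF library and 5.39% to 21.9% of each CV library. The library labelled CV M3 had 2382 normalized reads of Xist, the female-specific transcript of the inactive X, and 0 reads of 4 Y-linked genes, while the other 5 libraries labelled male had at most 21.3 normalized reads of Xist and 796 to 1314 reads of the Y-linked genes. Results for males are therefore given with and without it.

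Of the 8 genes, 5 lie in the MHC on chromosome 17, in a stretch in which H2-DMa (chr17:34119541-34139101, plus strand) comes first, followed by H2-DMb1 (chr17:34153072-34160230, plus), H2-Ab1 (chr17:34257689-34269419, plus), H2-Aa (chr17:34282744-34287823, minus) and H2-Eb1 (chr17:34305867-34316674, plus). Ciita is on chr16:10480059-10528418 and Ctss on chr3:95526786-95556403, both on the plus strand, and all positions are those of GRCm38 in GENCODE M21. H2-Eb1, H2-DMa and Ciita overlap genes on the opposite strand, which are the antisense gene Gm20513, Brd2 with 2 non-coding genes, and Dexi. Whether the counting used strand is not given in the sources used here, so reads of these genes and their opposite-strand neighbours may not be separated. Between H2-DMb1 and its paralog H2-DMb2 the longest transcripts share 27.2% of the 1355 words of 50 bases in H2-DMb1, so that counts of H2-DMb1 are uncertain, and no other member shared more than 0.599% of such words with any other gene.

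The promoter sequences of 3 members hold letters of the X2 and Y boxes or a run over the X box, the elements at which CIITA is known to be recruited. RefSeq promoter windows (GRCm38.p6) were found for H2-Aa, H2-Eb1, H2-DMa, H2-DMb1 and Ctss, and were not found for H2-Ab1, Cd74 and Ciita. In the 150 bases before each start, the longest run shared by H2-Eb1 and H2-DMb1 was AACTGATGATGCT, which lies over the X box. Both strands of each window were searched for this run, for TGACG (X2 box core) and for ATTGG (Y box core), all chosen with these sequences in view. Matches are shown in capitals, 5′ to 3′ along each gene, for H2-Aa (chr17:34287824-34287973, minus strand) and H2-Eb1 (chr17:34305717-34305866, plus strand). For H2-DMb1 only the 30 bases around that run are shown (chr17:34153088-34153117, plus strand), because GENCODE places an earlier start for this gene.
H2-Aa: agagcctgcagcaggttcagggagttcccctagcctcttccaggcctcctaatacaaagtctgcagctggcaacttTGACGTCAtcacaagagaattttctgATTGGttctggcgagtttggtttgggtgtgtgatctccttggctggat
H2-Eb1: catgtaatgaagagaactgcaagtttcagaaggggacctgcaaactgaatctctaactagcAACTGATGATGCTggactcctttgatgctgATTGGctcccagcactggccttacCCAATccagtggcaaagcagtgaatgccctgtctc
H2-DMb1: gtttacctagtAACTGATGATGCTaggctg

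The shared run of 13 bases began at base -89 in H2-Eb1 and -92 in H2-DMb1, counted from the RefSeq start, and the Y box followed at -59 and -61. A further Y box stood on the opposite strand of H2-Eb1 at -35. H2-Aa did not hold the run but had TGACG on both strands at -74 and -71, overlapping as 1 palindrome, and the Y box at -48. Neither of the 2 windows of H2-DMa nor that of Ctss held any of the 3 motifs. Both H2-DMa windows (chr17:34122682-34122831 and chr17:34125368-34125517) lie inside the gene as GENCODE draws it, from 34119541 on, and the bases before that start were not searched. Among all 32851 promoter windows of this length, 13.3% held TGACG and 24.5% ATTGG, and the shared run was in 2, or 0.00609%, those of H2-Eb1 and H2-DMb1 from which it was taken. A match is a description of the letters and was not tested as a binding site.

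**Figure D1:**
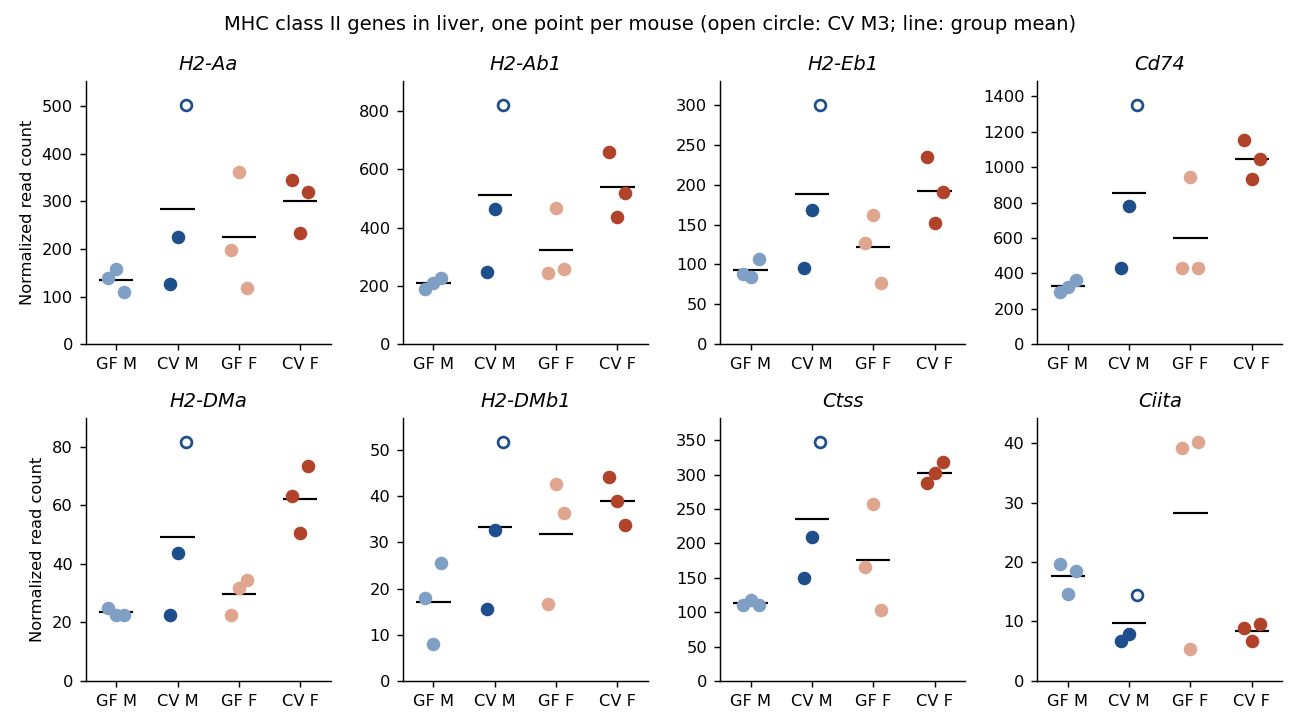
Normalized read counts of the 8 genes, with 1 point per mouse, a line at each group mean of 3 libraries and an open circle for CV M3. CV M3 is the highest and CV M1 the lowest of the 3 CV male points in each of the 8 panels, and Ciita is the gene whose CV means lie below its GF means.

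Per kilobase of exon, Cd74 was the most abundant member in every group and Ciita the least. Mean levels of Cd74 were 194 normalized reads per kilobase in GF males, 358 in GF females, 509 in CV males and 623 in CV females. Ciita had 1.84, 2.97, 1.02 and 0.88 normalized reads per kilobase in the same groups. With all 12 libraries, the group means of all members except Ciita rose in the order GF males, GF females, CV males, CV females. For Ciita the order was CV females, CV males, GF males, GF females. Without CV M3, the CV male means of H2-Aa and H2-DMb1 lay below their GF female means. That of Ciita then lay below its CV female mean. Of the neighbours in the order with all libraries, males and females within GF and within CV were tested. None of the 8 genes passed (limma, described below). GF females and CV males differ in both sex and condition and were not tested against each other.

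The chains of the presenting molecules came out higher on average in CV livers, with a spread between CV males that was wider than in any other group. That width rested on CV M3. Without it, CV males spread no wider than GF females in H2-Aa, H2-Ab1 or H2-Eb1. For H2-Ab1 they ran from 247 to 463, against 246 to 468 in GF females. H2-Ab1, the beta chain of the I-A molecule, had 188, 210 and 228 normalized reads in GF males 1 to 3 and 247, 463 and 821 in CV males 1 to 3. In females it had 246, 468 and 257 in GF and 660, 438 and 520 in CV. The male groups did not overlap, though CV M1 lay close to the highest GF male, and in females GF F2 lay inside the CV range. H2-Ab1 was higher in CV males by 1.12 ± 0.36 (log2, SE, n = 3 against 3, limma adjusted p = 0.0280), 2.18-fold. In females its difference was 0.78 ± 0.36 (limma adjusted p = 0.0739), and over both sexes 0.95 ± 0.25 (limma adjusted p = 0.00392).

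H2-Aa, the alpha chain of I-A, had 140, 157 and 109 normalized reads in GF males and 126, 224 and 502 in CV males. In females the libraries held 198, 362 and 119 in GF and 346, 234 and 320 in CV. The groups overlapped in each sex: CV M1 sat within the GF male range, and GF F2 was above all 3 CV females. The H2-Aa difference was 0.85 ± 0.43 in males, 0.53 ± 0.43 in females and 0.69 ± 0.30 over both sexes, with limma adjusted p of 0.142, 0.300 and 0.0572, none past the threshold of 0.05.

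H2-Eb1 encodes the beta chain of I-E, whose alpha chain is not made in C57BL/6 mice. Its values were 87.8, 83.8 and 106 normalized reads in GF males and 95.2, 169 and 300 in CV males. In females they were 127, 162 and 76.7 in GF and 234, 152 and 191 in CV. CV M1 again fell within the GF male range, and CV F2 below GF F2. H2-Eb1 was higher in CV livers over both sexes by 0.78 ± 0.25 (limma adjusted p = 0.0140), 1.72-fold, while its differences of 0.87 ± 0.36 in males and 0.70 ± 0.36 in females had limma adjusted p of 0.0791 and 0.110.

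Cd74 (chr18:60803848-60812652, plus strand), the invariant chain and chaperone of class II assembly, had the largest difference over both sexes among the 8 genes. GF males had 297, 321 and 361 normalized reads and CV males 429, 781 and 1352. GF females had 429, 944 and 429, and CV females 1155, 935 and 1047. The male groups did not overlap, and in females GF F2 exceeded the lowest CV library. Cd74 rose in CV males by 1.24 ± 0.36 (limma adjusted p = 0.0193), in CV females by 0.90 ± 0.36 (limma adjusted p = 0.0445) and over both sexes by 1.07 ± 0.26 (limma adjusted p = 0.00188), the last being 2.10-fold.

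Among the genes of peptide loading, H2-DMa was higher in CV females and Ctss in both sexes. H2-DMa, 1 chain of the peptide exchanger, had 25.1, 22.6 and 22.7 normalized reads in GF males and 22.4, 43.7 and 81.8 in CV males, so that CV M1 lay just below all GF males. Its female libraries held 22.6, 31.9 and 34.5 in GF and 63.1, 50.4 and 73.5 in CV, without overlap. The H2-DMa difference passed the test in females (1.05 ± 0.38, limma adjusted p = 0.0287) and over both sexes (0.95 ± 0.27, limma adjusted p = 0.00628), and in males it was 0.86 ± 0.38 (limma adjusted p = 0.103).

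H2-DMb1, the other chain, had the fewest reads of the class II chains, with 437 over the 12 libraries. Its values were 17.9, 7.98 and 25.5 normalized reads in GF males, 15.6, 32.6 and 51.8 in CV males, 16.6, 42.6 and 36.4 in GF females and 44.2, 39.0 and 33.7 in CV females. The groups overlapped in both sexes, and the difference over both sexes was 0.64 ± 0.34 with an interval of -0.08 to 1.36 (limma adjusted p = 0.114). The ratio of H2-DMb1 to H2-DMa per kilobase ran from 0.724 to 2.73 over the 12 libraries.

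Ctss, the protease that clears the invariant chain, was tightly grouped in GF males and in CV females. It had 111, 117 and 111 normalized reads in GF males, 149, 210 and 348 in CV males, 166, 258 and 104 in GF females and 288, 303 and 318 in CV females. Neither sex showed an overlap between CV and GF libraries. Ctss rose by 0.97 ± 0.32 in males (limma adjusted p = 0.0340), 0.88 ± 0.32 in females (limma adjusted p = 0.0295) and 0.92 ± 0.23 over both (limma adjusted p = 0.00234), the last being 1.90-fold.

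Ciita, the coactivator of class II transcription, lay in the opposite direction to the genes it is known to drive. GF males had 19.7, 14.6 and 18.4 normalized reads and CV males 6.77, 7.95 and 14.5. GF females had 39.2, 5.32 and 40.3, and CV females 8.83, 6.72 and 9.63. The male groups did not overlap, although CV M3 fell within 1 normalized read of GF M2, and in females GF F2 was the lowest of all 12 libraries. That lowest value stood for 2 reads, with a 95% Poisson interval of 0.644 to 19.2 normalized reads that covers counting error only, and the gene had 181 reads in all. Ciita was lower in CV livers over both sexes by -1.04 ± 0.43 (limma adjusted p = 0.0469), a fold of 0.486. This call passed in 8 of 26 alternatives, was lost at a pseudocount of 0.5 (limma adjusted p = 0.0505), and passed in 2 of 12 cases of 1 library left out, GF F2 and CV M3. Its differences of -0.85 ± 0.61 in males and -1.23 ± 0.61 in females had limma adjusted p of 0.310 and 0.0965.

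**Figure D2:**
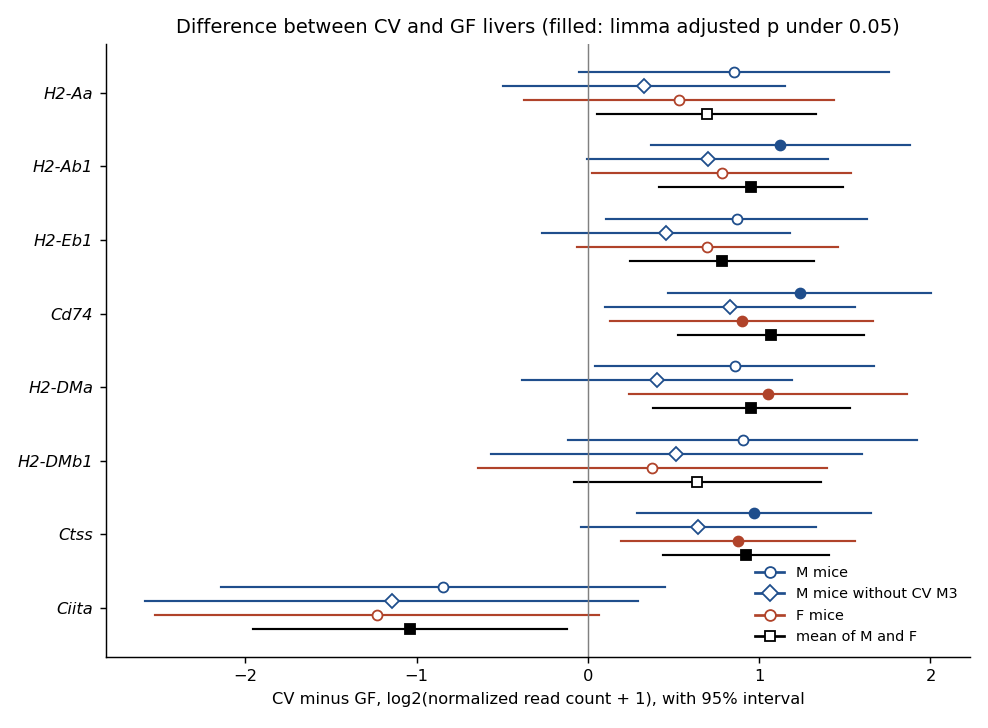
CV minus GF difference of each gene in log2(normalized reads + 1), with its 95% interval, in males, in males without CV M3, in females and as the mean of both sexes. Filled symbols passed a limma adjusted p of 0.05. Leaving out CV M3 moves each male estimate downward, and for Ciita this takes it further below 0.

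Counted together, 3 of the 8 genes were higher in CV males (H2-Ab1, Cd74 and Ctss), against 14.1% of all genes tested, and 0 were lower, against 15.4%, with 29.5% of all genes passing either way. In females 3 of the 8 were higher (H2-DMa, Cd74 and Ctss), against 29.8% of all genes, and 0 were lower, against 26%, with 55.8% passing either way. Over both sexes 5 were higher against 32.3% of all genes, and Ciita alone was lower against 28.7%. Either way, 6 of 8 passed where 61.1% of all genes did, so the share that moved at all was near the background. The median difference of the 8 genes was 0.89 in males, 0.74 in females and 0.85 over both sexes, where the medians of all genes were 0.06, 0.08 and 0.07.

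In males 3 of the 8 genes had every CV library above every GF library, against 22% of all genes, and 1 had every CV library below, against 21.1%. In females the 2 genes without overlap were H2-DMa and Ctss, both higher, against 34% of all genes, and 0 genes had every CV library below, against 31%.

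The male calls did not hold without CV M3. With it left out, 0 of the 8 genes passed the limma test in males, where 25.2% of all genes did, and 1, Cd74, had an unadjusted p under 0.05. Cd74 then differed by 0.83 ± 0.35 (limma adjusted p = 0.0877), H2-Ab1 by 0.70 ± 0.33 (0.132), Ctss by 0.65 ± 0.32 (0.152) and Ciita by -1.15 ± 0.68 (0.224), and the median over the 8 genes was 0.49. H2-Ab1, Cd74 and Ctss still had both remaining CV males above all GF males, against 26.3% of all genes, and Ciita both below, against 24.5%. Over both sexes, H2-Ab1, H2-Eb1, H2-DMa, Cd74 and Ctss remained higher without CV M3, against 32.1% of all genes, and Ciita lower, against 28.1%, with 60.2% passing either way.

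Other single libraries moved the counts as well. CV M1 was the lowest of the CV males in 8 of 8 genes and CV M3 the highest in 8 of 8. Leaving out CV M1 raised the count in males from 3 to 6, leaving out GF M1 lowered it to 0, and leaving out GF M3 or CV M2 lowered it to 1 (Cd74). The share of all genes passing in males went from 29.5% to 18.5%, 13.6%, 18.1% and 27.6% in these fits. In females the count fell to 0 without GF F1, CV F1 or CV F3, to 1 without GF F3 or CV F2 (H2-DMa), and rose to 6 without GF F2, which was the highest GF female in 6 of the 8 genes. Of all genes 46.8% to 57.2% passed in females in these 6 fits, against 55.8% with all libraries. The share of reads in the 7 abundant loci was 5.39% in CV M1, 21.4% in CV M2 and 21.9% in CV M3, in the same order as the members' levels. In the other groups the orders differed: GF F3 had the highest share of the GF females, 69.4%, and the lowest summed level of the members, GF F2 had 68.0% and the highest, and CV F1 had the lowest share of the CV females, 5.75%, and the highest summed level. The part of that share in the result was not tested beyond the alternatives described below.

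The CV effect did not differ detectably between the sexes for any of the 8 genes, with 0 passing the limma test, 0 having an unadjusted p under 0.05, and 0 passing in edgeR or DESeq2. Over all genes 0% passed this test. The estimates of male minus female effect ran from -0.19 for H2-DMa to 0.53 for H2-DMb1, and their 95% intervals reached from -1.45 to 2.22, so that sizeable differences between sexes were not resolved. Without CV M3 they ran from -0.65 for H2-DMa to 0.14 for H2-DMb1, the median over the 8 genes went from 0.33 to -0.14, and 6 of 8 rather than 1 of 8 lay below 0, with 0 passing either way. For Cd74 the interval with all libraries was -0.75 to 1.42.

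Males and females were also compared within each condition. Among GF livers all 8 estimates lay below 0, males lower than females, from -0.25 for Ciita to -0.89 for H2-DMb1. Of these 0 passed the limma test, where 1.63% of all genes did, and Cd74 at -0.78 ± 0.36 was the 1 gene with an unadjusted p under 0.05 (limma adjusted p = 0.277). Among CV livers 0 passed, where 0.0594% of all genes did, and 0 had an unadjusted p under 0.05. edgeR and DESeq2 called 0 of the 8 in either condition. Without CV M3 all 8 CV estimates were also lower in males, 0 passed, where 0.654% of all genes did, and 3 had an unadjusted p under 0.05 (H2-DMa, Cd74 and Ctss).

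The members varied together between mice to very unequal degrees. After the group means were removed, the correlation over the 12 libraries with the mean of H2-Aa, H2-Ab1, H2-Eb1 and Cd74 was 0.92 for Ctss, 0.77 for H2-DMa, 0.61 for H2-DMb1 and -0.22 for Ciita, given as a description because libraries share depth and scaling. Without CV M1 and CV M3, the libraries farthest from the median, these values were 0.86, 0.19, 0.25 and -0.81. Within a library the ratio of H2-Ab1 to H2-Aa per kilobase stayed between 1.84 and 3.20, that of Cd74 to H2-Aa between 4.62 and 9.02, and that of Ctss to H2-Aa between 1.94 and 3.61. Ciita to H2-Aa ran from 0.00586 in GF F2 to 0.135 in GF F3, a 23.0-fold range.

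Among named genes outside the lists used here, the patterns most like that mean were those of Chic1 (Pearson r = 0.96), Sp1 (0.94), Krt10 (0.93), Zfp933 (0.93) and Qpct (0.93), with the same removal of group means over 12 libraries. These genes were picked for the highest r among the genes tested, a choice that by itself favours high values. No chance level was computed. Spearman's rho ran from 0.79 for Sp1 to 0.85 for Zfp933. Without CV M1 and CV M3 the r ran from 0.80 for Zfp933 to 0.94 for Krt10. Their CV minus GF differences took either sign: Zfp933 was lower over both sexes by -1.20 ± 0.25 (limma adjusted p = 0.000583) and Qpct higher by 1.82 ± 0.19 (limma adjusted p = 2.18e-06).

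The tested proteases and partners that work beside the members, mostly general lysosomal proteases, had a larger median difference than the members. The gap between the lists was not tested. Of 13 genes of class II loading and processing, 9 were abundant enough to test, which left out the class II genes H2-DMb2, H2-Oa, H2-Ob and H2-Eb2. Over both sexes 8 were higher in CV livers, against 32.3% of all genes, and 0 lower, against 28.7%. Their median difference was 1.79. Ctsz, a lysosomal carboxypeptidase, rose by 2.39 ± 0.21 (limma adjusted p = 7.21e-07), Ctsh by 1.96 ± 0.18 (7.45e-07), Ctsd, the main lysosomal aspartic protease, by 2.35 ± 0.26 (3.00e-06) and Ctsl by 1.79 ± 0.21 (4.40e-06). In males 7 of the 9 were higher with all libraries, against 14.1% of all genes. Without CV M3 7 were higher, where 25.2% of all genes passed either way. These proteases serve lysosomal degradation in all cells and are also abundant in hepatocytes. Of 10 hepatocyte markers 7 were higher in CV livers as well, against 32.3% of all genes. Among the tested partners the exception was March1, a ubiquitin ligase that removes class II from the surface. It stood at -0.46 ± 0.42 (limma adjusted p = 0.351) and is named after its value was seen.

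**Figure D3:**
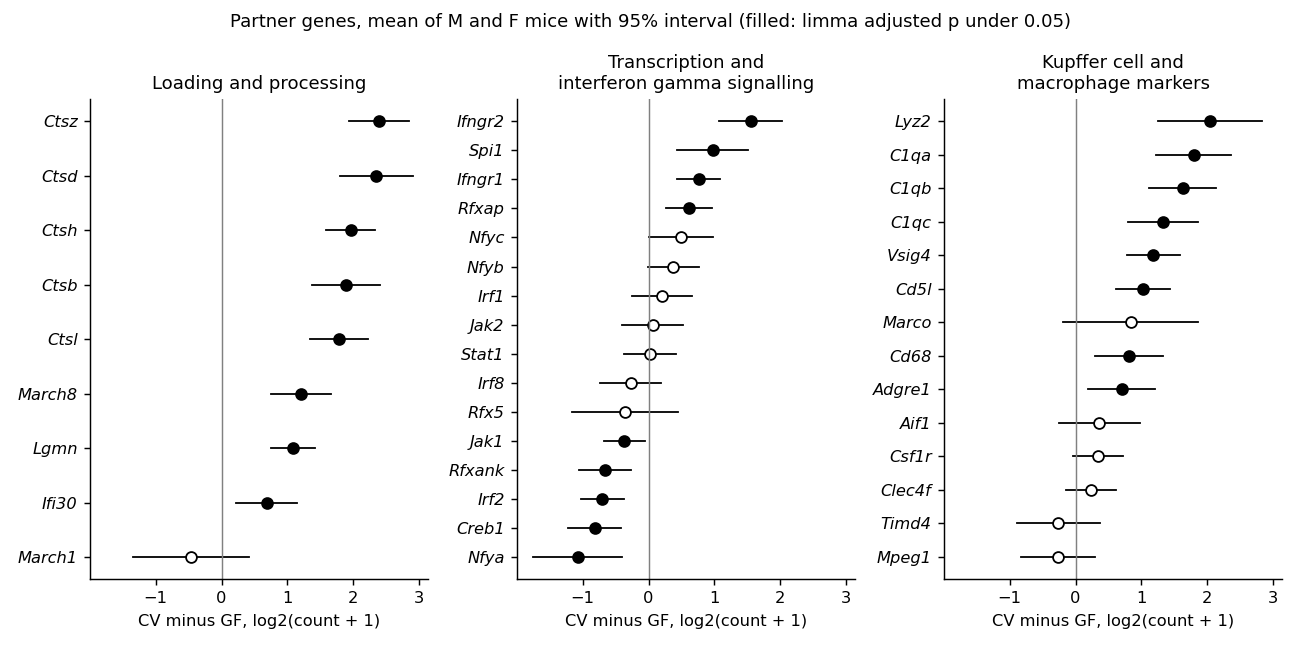
CV minus GF differences over both sexes, in log2(normalized reads + 1) with 95% intervals, of the tested genes of class II loading and processing, of class II transcription and interferon gamma signalling, and of the Kupffer cell and macrophage markers. Filled points passed a limma adjusted p of 0.05, as 8 of 9 loading genes, 9 of 16 transcription genes in both directions and 8 of 14 macrophage markers did. Of all genes 61.1% passed in either direction.

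Genes of class II transcription and interferon gamma signalling, the main inducer of Ciita, split in both directions. Of 18 genes 16 were tested. Over both sexes 4 were higher, against 32.3% of all genes, and 5 lower, against 28.7%. The share passing either way was near that of all genes, 61.1%, and the median was 0.04. The interferon gamma receptor chains Ifngr2 and Ifngr1 rose by 1.56 ± 0.23 (limma adjusted p = 2.72e-05) and 0.76 ± 0.16 (0.000545). Irf2, a regulator of interferon-inducible genes, was lower by -0.70 ± 0.15 (limma adjusted p = 0.000904) and Creb1, whose product binds the X2 box, by -0.82 ± 0.19 (0.00154). The subunits of the X box factor, named after their values were seen, took either sign, with Rfxap higher by 0.61 ± 0.17 (limma adjusted p = 0.00457), Rfxank lower by -0.66 ± 0.19 (0.00631) and Rfx5 at -0.36 ± 0.38 (0.432). The Y box subunit Nfya, likewise, was lower by -1.08 ± 0.32 (limma adjusted p = 0.00844).

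The list of MHC class I and the immunoproteasome covers the presentation of peptides from inside the cell. Over both sexes 10 of its 13 genes were higher, against 32.3% of all genes, and 1 lower, against 28.7%. B2m at 0.50 ± 0.31 (limma adjusted p = 0.173) and Tap1 at -0.16 ± 0.19 (0.466) did not pass. Tapbp, the peptide-editing tapasin, rose by 1.66 ± 0.20 (limma adjusted p = 5.60e-06), H2-D1 by 1.40 ± 0.21 (3.31e-05) and H2-K1 by 1.08 ± 0.22 (0.000437). Nlrc5, the coactivator of class I that corresponds to Ciita, was lower by -1.60 ± 0.31 (limma adjusted p = 0.000314). Of 6 costimulatory genes 3 were tested and 0 passed, where 61.1% of all genes did, with 0.61 ± 0.26 for Icam1 (limma adjusted p = 0.0510).

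In whole liver, fewer cells of a type and less RNA per cell cannot be told apart. Markers of the class II-bearing cells moved in different directions. Of 14 Kupffer cell and macrophage markers 8 were higher in CV livers over both sexes, against 32.3% of all genes. None was lower, against 28.7%, and the median was 0.82. Passing either way was near the share of all genes, 61.1%. The markers that did not pass were Clec4f (0.23 ± 0.18), Timd4 (-0.26 ± 0.30), Mpeg1 (-0.27 ± 0.26), Csf1r (0.34 ± 0.18), Aif1 (0.36 ± 0.29) and Marco (0.84 ± 0.48). C1qb rose by 1.63 ± 0.24 (limma adjusted p = 2.99e-05), C1qa by 1.80 ± 0.27 (3.40e-05), Vsig4 by 1.18 ± 0.19 (6.51e-05) and Lyz2 by 2.05 ± 0.37 (0.000208). Their summed level was 1422 to 1743 normalized reads in GF males, 2237 to 4711 in CV males, 2172 to 3168 in GF females and 3983 to 4986 in CV females.

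The summed level of the 8 members was 886 to 982 normalized reads in GF males, 1092 to 3471 in CV males, 1096 to 2274 in GF females and 2158 to 2799 in CV females. In CV males both sums went from CV M1 (members 1092, macrophage markers 2237) through CV M2 (1931 and 3357) to CV M3 (3471 and 4711), and in GF females both were highest in GF F2 (2274 and 3168). In CV females the orders differed, with the members highest and the macrophage markers lowest in CV F1. The order of CV males was not particular to the macrophage markers. The stellate cell markers (2374, 4083 and 4162 in CV M1 to CV M3) held it too, as did the costimulatory and the class II transcription lists. The remaining lists did not. The stellate cell markers were also highest of the GF females in GF F2 (3990). The loading and processing genes did not follow the members among CV males, with 20251 normalized reads in CV M1, 10676 in CV M2 and 12061 in CV M3. Their part in the members' result was not tested.

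**Figure D4:**
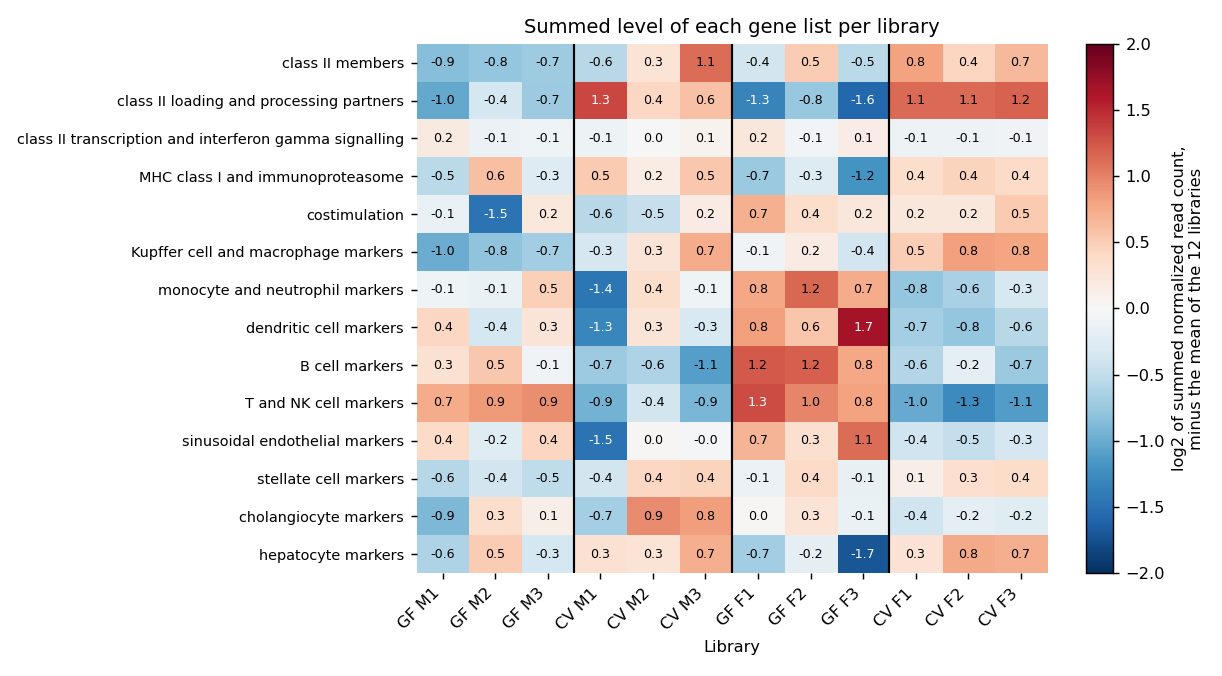
Summed normalized reads of each gene list in each library, as log2 minus the mean of the 12 libraries, so red is above and blue below that mean. The class II members and the macrophage markers are both lowest in GF males, and T and NK cell markers are positive in all 6 GF and negative in all 6 CV libraries.

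T and NK cell markers and the tested dendritic cell markers went the other way. Of 10 dendritic cell markers 2 were abundant enough to test and both were lower, against 28.7% of all genes. Clec9a was lower by -2.99 ± 0.35 (limma adjusted p = 3.95e-06) and Zbtb46 by -0.93 ± 0.36 (0.0321). The dendritic list summed to 89.2 to 362 normalized reads over the GF libraries and 46.3 to 137 over the CV libraries, and no marker was at 0 in every library. Among the B cell markers Ighm was lower by -1.13 ± 0.27 (limma adjusted p = 0.00160) and Cd79b stood at 0.12 ± 0.44 (0.818), and the list summed to 96.4 to 237 in GF and 47.2 to 89.3 in CV livers. All 8 tested of 10 T and NK cell markers were lower, against 28.7% of all genes. Nkg7 was lower by -1.91 ± 0.19 (limma adjusted p = 1.47e-06), Lck by -2.42 ± 0.29 (5.36e-06), Cd8b1 by -2.57 ± 0.38 (3.45e-05) and Cd8a by -2.84 ± 0.43 (3.89e-05). The T and NK list summed to 285 to 423 in GF and 70.5 to 132 in CV livers.

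Of the monocyte and neutrophil list 3 of 7 were tested and 1 was lower, Csf3r at -1.89 ± 0.47 (limma adjusted p = 0.00227). For this list and those that follow, the shares of all genes were 32.3% higher and 28.7% lower. Sinusoidal endothelial markers were lower in 3 of 8 cases, Stab2 by -1.87 ± 0.28 (4.05e-05), Stab1 by -1.73 ± 0.33 (0.000320) and Mrc1 by -0.98 ± 0.21 (0.000909). Stellate cell markers were higher in 2 and lower in 1 of 7, and 0 of the 5 tested cholangiocyte markers passed. The part of these cell types in the class II result was not tested.

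How the libraries are scaled set how many members passed. The median over both sexes of the 8 genes was 0.85 with the deposited scaling, 1.26 with libraries scaled to all reads and 0.38 with libraries scaled to the reads outside the 7 abundant loci. The median of all genes shifted with it, from 0.07 to 0.53 and -0.35. Under these 3 scalings the members' median stood above that of all genes by 0.78, 0.73 and 0.73. Rescaling a library shifts all its genes nearly alike, so this gap could hardly change and is no separate support. With the reads outside the 7 loci 1 of the 8 genes passed over both sexes, Ciita, lower, where 59.9% of all genes did, and H2-Aa and H2-DMb1 turned below 0 in females. With the trend of values on transcript length and GC content removed 1 passed, Ctss, higher by 0.46, where 56.2% of all genes did. The members' median was then 0.34 over both sexes, 0.27 above that of all genes, and in females it was 0.011 against 0.087 for all genes.

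**Figure D5:**
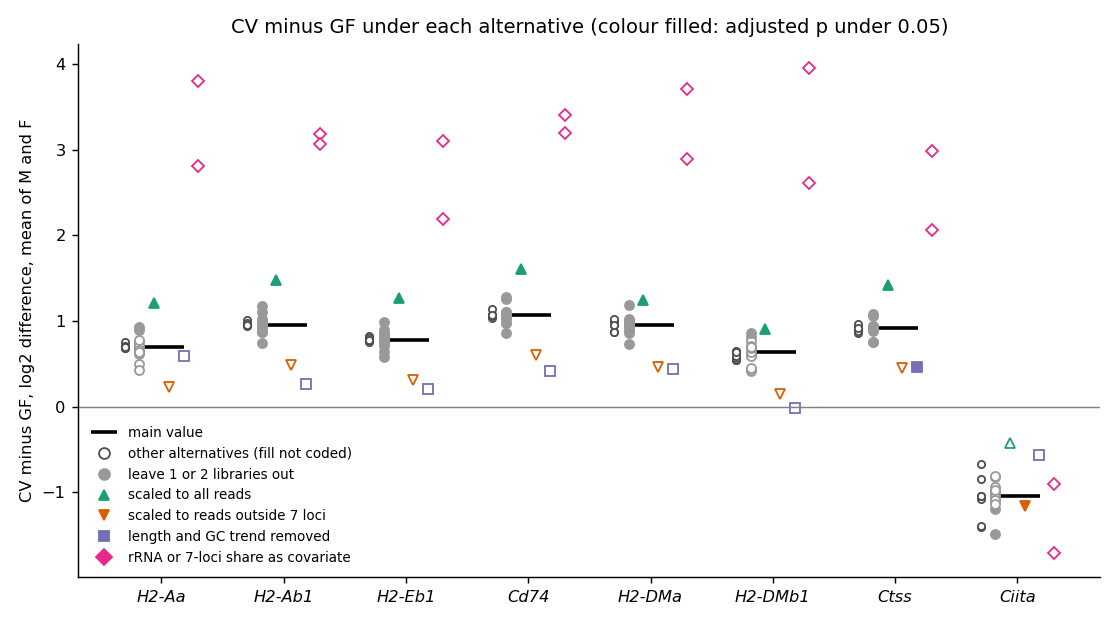
CV minus GF difference of each gene over both sexes, on the log2 scale, under each processing alternative, with the reported value as a black bar. Most alternatives lie close to the bar, the scaling to reads outside the 7 loci lies nearer to 0 for all genes but Ciita, the removal of the length and GC trend (drawn without the replicate block) lies nearer to 0 for all 8, and the fits with a ribosomal or abundant-locus share as covariate lie far from it with no filled symbol.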

How the data were processed

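Polyadenylated RNA from 12 mouse livers was sequenced from TruSeq stranded libraries. Per the labels, the authors counted reads per gene with HTSeq 0.6.1p1 on GRCm38 and normalized with DESeq2, and the aligner is not given in the sources used here. The deposited signal values are counts divided by a library size factor: 100% of them were whole reads within 0.01 of a read after division by each library's step, and these recovered read counts gave depth, intervals and the count tests. No other column of the table was used (0 left out).

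Values were tested as log2(value + 1) with limma 3.58.1 (R 4.3.3) on the 11782 genes with a mean of at least 10, with 4 group means, all 12 libraries, a trended prior and Benjamini-Hochberg adjustment over all genes at 0.05. The fit was tested on simulated data. Alternatives were TMM, all-read and outside-locus scalings, pseudocounts of 0.5 and 5, other minimum means, edgeR 4.0.16 and DESeq2 1.42.0 on recovered reads, ribosomal covariates, length and GC trends, a replicate block, and libraries left out. The 7 abundant loci and the alternatives that use them, the length and GC removal, and the exclusion of CV M1 with CV M3 were chosen after seeing the data.

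The 8 members and all gene lists were chosen with earlier results of these data known. Beside the members, up to 4 tested genes per list with the smallest adjusted p over both sexes are named, and 5 established genes most like the class II mean. The genes of the macrophage and class I lists that did not pass are named as well. Of the B cell markers Ighd was not matched and is not analysed here, and 1 marker's own result is not reported here. Replicate numbers were checked for pairing: deviations of same-numbered CV males and females correlated at 0.193, 0.118 and 0.173, all above 0.1. The other group pairs each had at least 1 correlation under 0.1. None of the reported tests used pairing, and the replicate block was run as an alternative only. Between CV males and females 0 of the 8 genes passed with that block, where 0.204% of all genes did.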

Additional observations from a re-analysis of the deposited data

Results flagged for a closer look

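In GF livers, 3 genes had 1 library set far apart from the other 5, and each time it was GF F2. It held 362 normalized reads of H2-Aa against 109 to 198 in the other GF libraries, 468 of H2-Ab1 against 188 to 257, and 944 of Cd74 against 297 to 429. In CV livers, Ciita had its far value in CV M3, with 14.5 normalized reads against 6.72 to 9.63 in the other CV libraries. Each gap to the nearest library, as a share of the range of the 6, exceeded Dixon's 95% critical value. Each set of 6 pooled both labelled sexes. For a single set chance flags about 1 in 20, and 16 sets were examined. The 3 flags of GF F2 come from 1 library and are not independent, so that rate does not apply to them jointly.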

How the results depend on the processing

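The count of members passing the limma test was 3 in males, 3 in females and 6 over both sexes. Scaled to all reads it was 6 in males and 7 in females, where 32.2% and 59.8% of all genes passed. With no minimum mean it was 1 in males and 1 in females, where 12.5% and 30.4% of the 22953 genes passed. Scaled to reads outside the 7 abundant loci it was 0 in males, 1 in females and 1 over both. Of all genes 26.4%, 55.8% and 59.9% passed in these 3 comparisons. With the mitochondrial ribosomal share, or the share of the 7 loci, as covariate it was 0 in all 3 comparisons. In these fits 0 and 7 of all genes passed over both sexes, and the members' median there was 3.04 and 2.94. Neither share overlapped between GF and CV libraries, so these fits cannot separate the share from the condition. With the length and GC trend removed it was 0 in males, 0 in females and 1 over both, where 24.7%, 50.3% and 56.2% of all genes passed. With a replicate block added to that removal it was 0 in all 3, where 17.1%, 45.3% and 52.6% of all genes passed. Without CV M1 and CV M3 together, the members' median difference in males was 0.88, against 0.04 for all genes. The lone CV male is then assumed to vary like the other groups, so no count is given for that fit. Leaving out 1 library gave counts of 0 to 6 in males, 0 to 6 in females and 5 to 7 over both sexes. Of all genes 13.6% to 33.0%, 46.8% to 59.1% and 56.0% to 63.2% passed in these fits. The causes were not tested.

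The replicate block alone left the counts at 3, 3 and 6 and changed no member's call, and 6827 genes in all passed over both sexes against 7194 without it. Same-numbered GF and CV males correlated at -0.187, -0.228 and -0.094, and females at -0.004, 0.019 and -0.167. The 3 comparisons between sexes stayed at 0 under every alternative run.

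Over the 8 genes and 3 comparisons, 655 alternative values were computed, of which 502 kept direction and call, 111 lost the call, 31 gained it and 11 turned direction. In females H2-DMb1 turned to -0.024 without GF F1, the lowest value on leaving out 1 library, and the highest was 0.63 without GF F2. With reads outside the 7 loci H2-Aa turned to -0.083 and H2-DMb1 to -0.21 in females. With the length and GC trend removed, with or without the block, H2-Ab1 turned to -0.096, H2-Eb1 to -0.044 and H2-DMb1 to -0.46 in females, and H2-DMb1 to -0.010 over both sexes. Depth limits Ciita most, with 2 to 26 reads per library, and H2-DMb1, with 6 to 105.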
